A study of Nothobranchius furzeri with 30 samples.

Results

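The voltage-gated potassium, sodium and calcium channels of the killifish retina were described across the adult life of female fish. Members were all loci of the deposited annotation with a name of the families KCN (potassium), SCN (sodium), CACN (calcium) or HCN (hyperpolarization-activated cyclic nucleotide-gated), pore-forming and auxiliary subunits together. This gave 208 of 24989 loci, with 129 potassium, 55 calcium, 15 sodium and 9 HCN channel loci. The potassium loci include inward rectifiers and tandem-pore channels, which share the pore but are not gated by voltage in the strict sense.

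Retinas came from untreated wild-type killifish (*Nothobranchius furzeri*) of the inbred GRZ-AD strain, 10 females each at 6 weeks (young adult), 12 weeks (middle aged) and 18 weeks (old). Both retinas of a fish formed 1 sample, dissected after removal of the retinal pigment epithelium (RPE), so that each of the 30 samples is a separate fish. RNA was measured by QuantSeq 3′ RNAseq, which reads the 3′ end of transcripts, and a count is therefore not scaled to transcript length. Only females were studied.

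Retinal neurons signal with few or no spikes in the outer retina and with spikes in ganglion and some amacrine cells. Photoreceptors and bipolar cells release transmitter at ribbon synapses through L-type calcium channels. The graded light responses of photoreceptors are shaped by Kv2 channels that hold the silent subunit KCNV2. Sodium channels and Kv1, Kv3 and Kv4 channels carry and repolarise spikes, N-type and P/Q-type calcium channels serve conventional synapses, and inward rectifiers of Müller glia buffer potassium. Auxiliary beta, alpha2delta and KChIP subunits set how many channels reach the membrane and how they gate.

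Each fish had 3552371 to 5840792 counts on loci, and the channel loci took 0.228% to 0.368% of them. Of the 208 channel loci, 127 passed the filter on low counts and were tested, which is 74 of the 129 potassium, 41 of the 55 calcium, 8 of the 15 sodium and 4 of the 9 HCN loci. Counts below are over tested loci. The other 81 had at most 23 counts in any fish, and 6 of these had 0 counts in all 30 fish. They included KCNJ13, the inward rectifier known from the RPE, with mean levels of 0.143, 0.336 and 0.432 CPM (counts scaled to a common library size) at 6, 12 and 18 weeks, KCNA1, and CACNA2D4B. With counts this low, their changes with age were not tested in the main fit. Names are uncertain where several loci carry one: 65 channel loci share 27 names, and 14 loci share a RefSeq gene with another locus of the same name, so that reads of 1 gene may be split. Where channel loci share a name, the XLOC number is given with the values.

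The labelled tissue was checked against marker lists. All 15 rod marker loci and all 5 cone marker loci were tested. RPE marker loci summed to 379 to 889 CPM in 18-week fish and 851 to 1749 CPM in 6-week fish, and 9 of 11 tested were lower at 18 weeks (median log2FC −1.42). The RPE loci RGRA and BEST1 were not. Cone marker loci summed to 3608 to 4997 CPM in 18-week fish and 5815 to 9326 CPM in 6-week fish, and 5 of 5 were lower. Müller glia marker loci summed to 2058 to 2403 CPM in 18-week fish and 1503 to 1693 CPM in 6-week fish, with 3 of 5 tested higher, and 2 of the 4 loci not tested were at 0 in all 18-week fish (AQP1A.1, XLOC_015294, and GLUL(1OF2)). Immune cell marker loci summed to 45.0 to 61.5 CPM in 18-week fish and 16.4 to 74.1 CPM in 6-week fish, with 5 of 6 tested higher, and 1 MPEG1 locus (XLOC_024315) was at 0 in all 18-week fish. Only for RPE was a score of its loci added to the fit as a covariate. That score ran from 3.85 to 4.98 in 18-week fish and from 4.99 to 5.92 in 6-week fish, without overlap. Such a fit cannot fully separate the score from age, so the part of these shifts in the channel results below remains untested. In whole retinas, fewer cells of a type and less RNA per cell cannot be told apart. One library stood apart: in 18-week fish 1 a pair of abundant loci took 18.3% of the counts, against a median of 31.3% at that age, and its channel loci summed to 2466 CPM, against 2816 CPM in the next lowest fish of its age.

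Between 18 and 6 weeks, more channel loci were lower than higher. With an FDR under 0.05 (edgeR's quasi-likelihood test, adjusted by Benjamini-Hochberg over all 13975 tested loci), 13 of 127 channel loci were higher and 40 lower at 18 weeks, which is 10.2% and 31.5%. Over all tested loci the shares were 14.0% higher and 15.2% lower. The median log2FC of the channel loci was −0.19, beside 0.02 over all loci. Adding an absolute log2FC of at least 1 left 2 channel loci higher (1.31% of all loci) and 5 lower (2.03% of all loci). Both higher loci lie at the edge of that threshold (1.01 and 1.0004), and their number was 0 to 2 when single fish were left out. The summed level of the channel loci was 2910 ± 174 CPM at 18 weeks and 3274 ± 195 CPM at 6 weeks (SD, n = 10 each), with 3129 ± 190 CPM at 12 weeks. These sums use TMM factors, and their direction depends on them. In unscaled counts the channel loci had a mean of 14966 at 18 weeks and 13815 at 6 weeks. The mean counts on all loci were 4622608 and 4675282, so the unscaled share was higher at 18 weeks.

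This balance rests on the choice between library size alone and factors such as TMM. RLE factors gave 12 channel loci higher and 40 lower, and upper-quartile factors gave 13 and 40. The values above use TMM factors, which averaged 1.12 in 18-week and 0.908 in 6-week fish, while a pair of abundant loci took 30.8% of the counts in 18-week and 43.0% in 6-week fish. Scaled by library size alone, the median of all loci moved to 0.32 and that of the channel loci to 0.11, and 44 channel loci were called higher and 11 lower (over all loci 46.1% and 4.56%). The channel median lay 0.21 below that of all loci under both scalings. Other factors shift all loci by nearly the same amount, so this gap could hardly change and is no check on the scaling. The shift was upwards, so that the 13 loci called higher could be expected to stay called under library size alone, and all did. Of the 40 called lower, 11 stayed called. Among them were KCNB2 (XLOC_015530), KCNC3B (XLOC_018391), KCNJ14, KCNK10B, both CACNA1BA loci, CACNA2D2 (1 OF 2) (XLOC_016564), CACNB3B and CACNG6B. Of the other 29, KCNA2(1OF2), KCNB2 (XLOC_013776) and KCNK1B changed sign to 0.01, 0.02 and 0.03, and 26 stayed below 0. With the score of RPE loci added as a covariate, 3 of the 13 and 25 of the 40 stayed called in the same direction, while 13 of the 13 kept a log2FC above 0 and 39 of the 40 one below 0, and the channel median was −0.25. Without 18-week fish 1, 14 loci were higher and 40 lower.

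**Figure D1:**
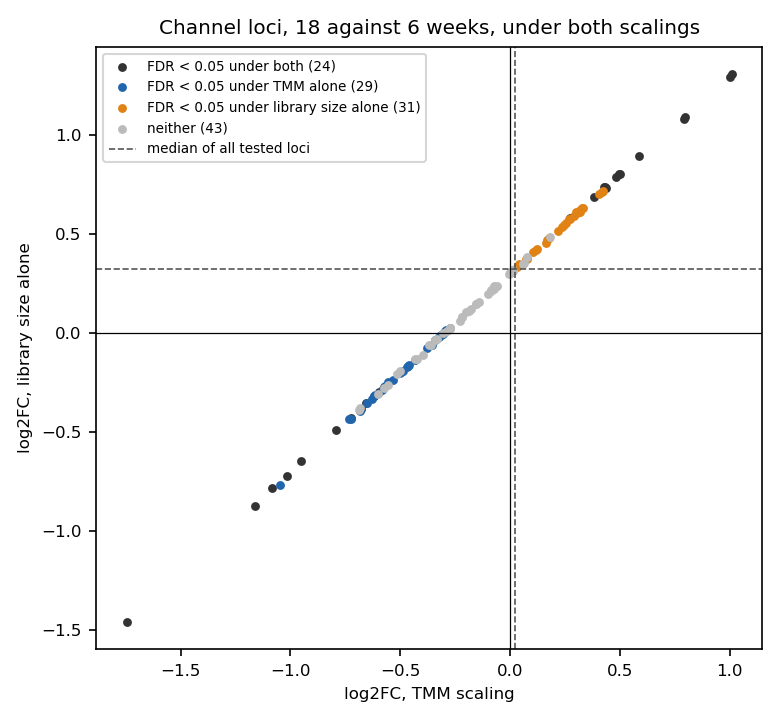
Each point is 1 of the 127 tested channel loci, with its log2FC at 18 against 6 weeks under TMM scaling (x axis) and under library size alone (y axis); dashed lines mark the medians of all tested loci (0.02 and 0.32). Points lie along 1 line, shifted upwards, with 24 loci called under both scalings, 29 under TMM alone and 31 under library size alone.

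By family, 14 of 41 tested calcium channel loci were lower and 3 higher at 18 weeks, with a median log2FC of −0.34 (5 lower, 11 higher and −0.03 by library size alone). Of 74 potassium channel loci, 22 were lower and 9 higher, with a median of −0.09, which turned to 5 lower, 30 higher and 0.22 by library size alone. Of 8 sodium channel loci, 3 were lower and 1 higher (median −0.25), turning to 0 lower, 2 higher and 0.06 by library size alone. Over all tested loci, 15.2% were lower and 14.0% higher, with a median of 0.02. By library size alone these values were 4.56%, 46.1% and 0.32, and the same shares stand beside the class counts below. No family was tested against another.

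**Figure D2:**
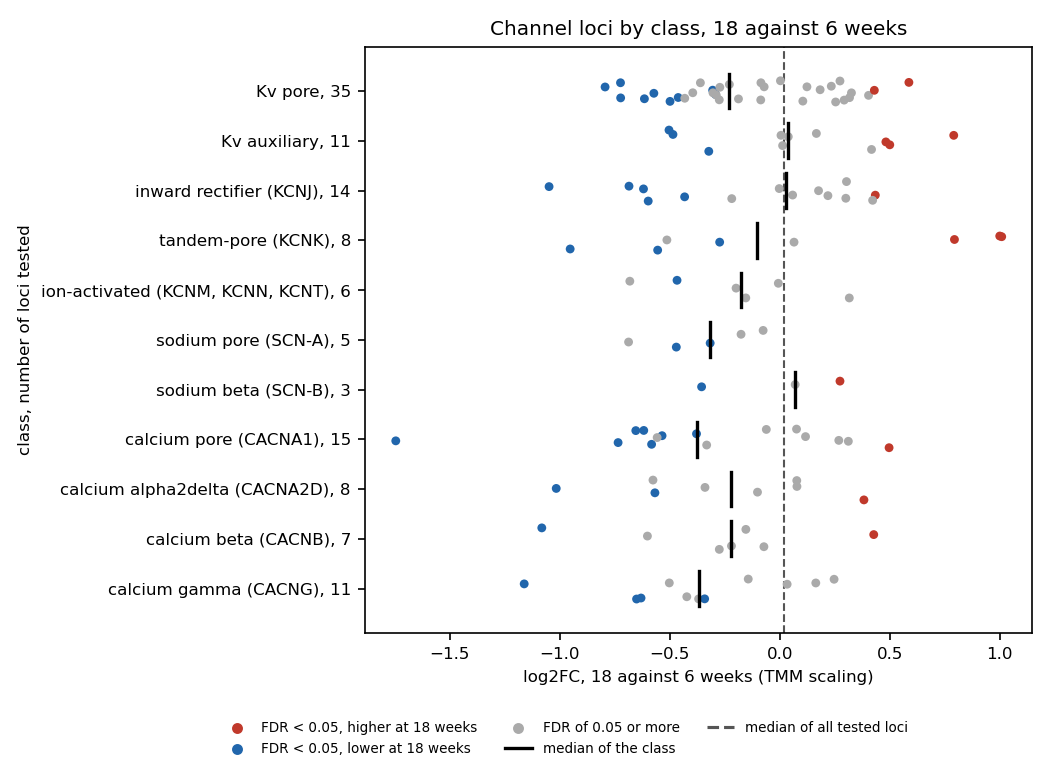
Log2FC at 18 against 6 weeks (x axis, TMM scaling) of 123 tested channel loci, 1 point each, in 11 classes (rows, with the number tested). Red points were higher and blue points lower at an FDR under 0.05, grey points passed neither, black bars are class medians, and the dashed line is the median of all tested loci (0.02); the medians of the calcium pore (−0.38) and gamma (−0.37) classes lie farthest to the left, and under library size alone they are −0.07 and −0.06.

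Of 15 tested CACNA1 loci, which encode the calcium pores, 7 were lower and 1 higher in old retinas, and library size alone turned this to 2 lower and 4 higher. CACNA1BA encodes a pore of the N-type channel, which drives transmitter release at conventional synapses, and is listed at 2 tested loci. At XLOC_002478 the lowest, median and highest fish had 0.189, 1.97 and 3.84 CPM at 18 weeks, against 3.66, 6.31 and 7.38 CPM at 6 weeks. In 9 of 10 old fish it was below every young fish, and the log2FC of −1.75 (SE 0.251, FDR 1.8e-06) was the lowest of the tested channel loci. It was also lower in 12-week fish, which had 2.19 to 3.78 CPM (log2FC −1.02 against 6 weeks, FDR 0.0123). The more abundant CACNA1BA locus, XLOC_000945, had a median of 14.1 CPM at 18 weeks and 23.3 CPM at 6 weeks, with 8 old fish below all young ones (log2FC −0.65, SE 0.126, FDR 0.000154). CACNA1BB, the other N-type locus, had a log2FC of 0.08 (SE 0.169, FDR 0.771).

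CACNA1AB, one of the P/Q-type pores, had 0.754, 6.79 and 11.1 CPM (lowest, median, highest) in 18-week fish and 7.86, 11.4 and 14.6 CPM in 6-week fish at XLOC_006565, so that the groups overlapped (log2FC −0.73, SE 0.227, FDR 0.013). Its neighbour in number, XLOC_006566, carries the same name and was lower too (−0.58, FDR 0.00266), as was CACNA1AA (−0.38, FDR 0.00155). The remaining CACNA1AB locus, XLOC_002123, had too few counts to be tested. None of the 3 lower loci stayed called under library size alone. XLOC_006566, CACNA1AA, CACNA1BB and CACNA1R (−0.62, FDR 0.00693) lie outside the naming rule and were picked after their values were seen.

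The L-type pores did not move together. CACNA1C, the pore best known from heart and smooth muscle, was lower, with a median of 7.77 CPM in 18-week and 11.04 CPM in 6-week fish (log2FC −0.54, SE 0.163, FDR 0.0119). CACNA1D, known from ribbon synapses of hair cells and retina, was higher at XLOC_021505, with 25.3, 29.5 and 39.0 CPM (lowest, median, highest) in 18-week fish and 14.3, 22.5 and 34.3 CPM in 6-week fish (log2FC 0.50, SE 0.122, FDR 0.00207). The locus beside it with the same name, XLOC_021504, carried more counts and missed the threshold, with a median of 185 CPM at 18 weeks and 166 CPM at 6 weeks (log2FC 0.12, SE 0.122, FDR 0.50). Another tested locus, CACNA1DA at XLOC_016522, had medians of 31.5 and 34.7 CPM at 18 and 6 weeks (log2FC −0.06, SE 0.119, FDR 0.74). CACNA1F, which RefSeq lists as *cacna1fb*, is named after the photoreceptor L-type pore, whose loss causes congenital stationary night blindness in humans. It had a median of 45.6 CPM in 18-week and 42.0 CPM in 6-week fish (log2FC 0.27, SE 0.134, FDR 0.13), and without 18-week fish 1, which had 94.3 CPM, its log2FC was 0.12.

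Auxiliary calcium channel subunits were split. CACNB3B, a cytoplasmic beta subunit, was lower, with 2.45, 13.1 and 18.0635 CPM (lowest, median, highest) in 18-week fish and 17.5, 27.4 and 35.04 CPM in 6-week fish. In 9 of 10 old fish it was below all young fish (log2FC −1.08, SE 0.192, FDR 5.1e-05), and 12-week fish had a median of 19.1 CPM. Its paralog CACNB3A went the other way, with medians of 18.9 CPM at 18 weeks and 12.8 CPM at 6 weeks (log2FC 0.43, SE 0.155, FDR 0.0339), a call lost in 9 of 30 fits that left out a fish (highest FDR 0.0779, on leaving out 18-week fish 8). The ratio of CACNB3A to CACNB3B within a fish does not depend on scaling. It was 0.593, 1.30 and 5.69 (lowest, median, highest) in 18-week fish and 0.362, 0.482 and 0.692 in 6-week fish, and 9 of 10 old fish lay above all young fish. Of 7 pairs of tested A and B paralogs with 1 locus each, none had ratios without overlap between these ages. The photoreceptor-type beta subunits CACNB2A (−0.27, SE 0.112, FDR 0.0608) and CACNB2B (−0.15, SE 0.123, FDR 0.367) missed the threshold.

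Alpha2delta subunits lie outside the cell and bring calcium channels to the synapse. Of 8 tested, 2 were lower and 1 higher at 18 weeks (median −0.22), and library size alone gave 1 lower and 3 higher (median 0.08). CACNA2D2 (1 OF 2), XLOC_016564, had 1.13, 5.77 and 10.5 CPM in the lowest, median and highest 18-week fish and 7.11, 11.5 and 15.3 CPM in 6-week fish, with 8 old fish below all young ones (log2FC −1.02, SE 0.207, FDR 0.000289). Leaving out 18-week fish 1 gave −0.90. CACNA2D2(3OF3), which RefSeq lists as *cacna2d2b*, was lower by less (−0.57, FDR 0.000458), and CACNA2D1 (1 OF 2) was higher (0.38, SE 0.125, FDR 0.0187). CACNA2D4A, a subunit of photoreceptor synapses, had medians of 7.42 CPM at 18 weeks and 11.5 CPM at 6 weeks and missed the threshold (log2FC −0.58, SE 0.24, FDR 0.0653).

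The gamma family holds muscle calcium channel subunits and the TARPs, which escort AMPA-type glutamate receptors. Of 11 tested, 4 were lower and 0 higher at 18 weeks in this fit, while library size alone gave 1 lower and 3 higher. CACNG7B, a TARP, had 2.45, 16.7 and 20.2 CPM in the lowest, median and highest 18-week fish and 21.5, 22.7 and 33.4 CPM in 6-week fish. The 2 ages did not overlap (log2FC −0.65, SE 0.175, FDR 0.00449), as was so for 1.33% of all tested loci in this direction. CACNG3B, another TARP, was lower with overlap (−0.63, SE 0.182, FDR 0.00815). CACNG6B, of the type known from mammalian muscle, had 0.548, 1.34 and 2.49 CPM in 18-week fish and 1.95, 3.27 and 4.21 CPM in 6-week fish, and 8 old fish were below all young fish (log2FC −1.16, SE 0.246, FDR 0.000448). The 13 skeletal muscle marker loci summed to 2.64 to 5.44 CPM in 18-week fish and 4.39 to 10.5 CPM in 6-week fish, 1 of them was tested and lower, and TTNB (XLOC_006412) and TNNI2B.1 were at 0 in all fish. Their part in the value of CACNG6B was not tested.

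Of 35 tested Kv pore loci, 10 were lower and 2 higher at 18 weeks, which library size alone turned to 3 lower and 11 higher. KCNB2 encodes a Kv2 pore, a delayed rectifier, and is listed at 2 tested loci. KCNB2 at XLOC_015530 had 135, 155 and 196 CPM in the lowest, median and highest fish at 6 weeks, 146, 198 and 245 CPM at 12 weeks and 77.6, 100.2 and 176 CPM at 18 weeks. It was lower at 18 weeks than at 6 weeks (log2FC −0.57, SE 0.113, FDR 0.000198) and than at 12 weeks (−0.82, SE 0.113, FDR 4.14e-06), and 8 of 10 old fish were below all young fish. KCNB2 at XLOC_013776 was lower by −0.29 (FDR 0.0319), a call lost in 8 of 30 fits that left out a fish (highest FDR 0.0697, on leaving out 6-week fish 1).

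KCNV2 encodes the silent subunit that joins Kv2 pores in photoreceptors and is mutated in human cone dystrophy with supernormal rod responses. KCNV2A was higher, with medians of 14.1 CPM at 18 weeks and 9.71 CPM at 6 weeks (log2FC 0.43, SE 0.144, FDR 0.0218). KCNV2B, the more counted locus, had medians of 51.3 CPM at 18 weeks and 50.4 CPM at 6 weeks (log2FC −0.07, SE 0.138, FDR 0.739). The within-fish ratio of KCNV2A to KCNV2B had medians of 0.320 at 18 weeks and 0.206 at 6 weeks, and 2 old fish were above all young fish.

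Of the Kv3 pores, which allow fast repeated spikes, KCNC3B at XLOC_018391 was lower (−0.79, SE 0.183, FDR 0.00107), and KCNC1 was lower by −0.30 (FDR 0.0384), a call lost in 10 of 30 fits that left out a fish (highest FDR 0.077, on leaving out 6-week fish 4). The KCNC3B locus XLOC_018392 has the same RefSeq gene as XLOC_018391, so reads of that gene may be split. KCNH6, an ether-à-go-go-related pore, was higher, with 12.9, 19.3 and 24.1 CPM in 18-week fish and 8.09, 12.9 and 17.4 CPM in 6-week fish (log2FC 0.59, SE 0.12, FDR 0.000309).

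Of 11 tested Kv auxiliary subunits, 3 were higher and 3 lower, while library size alone gave 8 higher and 0 lower. KChIPs are calcium-binding proteins that attach to Kv4 pores. KCNIP2 (XLOC_006811) was higher, with medians of 8.65, 12.9 and 15.1 CPM at 6, 12 and 18 weeks (log2FC at 18 against 6 weeks 0.79, SE 0.157, FDR 0.000212). KCNIP4 was higher as well (0.48, SE 0.165, FDR 0.0246), a call lost in 3 of 30 fits (highest FDR 0.0643, on leaving out 18-week fish 5). KCNIP1B had 26.6, 28.1 and 35.4 CPM in the lowest, median and highest 18-week fish and 31.5, 42.8 and 51.0 CPM in 6-week fish (log2FC −0.50, SE 0.0852, FDR 2.54e-05), with 6 old fish below all young fish. KCNIP3A, which RefSeq lists as *kcnip3b*, was lower by −0.49 (FDR 0.0422), a call lost in 11 of 30 fits that left out a fish (highest FDR 0.0937, on leaving out 6-week fish 4). Of the beta subunits, KCNAB1(3OF3) at XLOC_000134 had medians of 41.4 CPM at 18 weeks and 29.5 CPM at 6 weeks, and 8 old fish were above all young fish (log2FC 0.50, SE 0.103, FDR 0.000342). KCNAB3 was lower (−0.32, SE 0.0847, FDR 0.0038).

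Tandem-pore potassium channels carry background current. KCNK6 (TWIK-2) had 13.9, 19.7 and 25.8 CPM in the lowest, median and highest 18-week fish and 5.77, 10.1 and 12.2 CPM in 6-week fish. It was the only tested channel locus whose old fish were all above the young fish, which held for 1.01% of all tested loci (log2FC 1.01, SE 0.146, FDR 2.15e-06). Middle-aged fish had 7.16 to 17.3 CPM. KCNK6 was among the 3 of 13 higher loci that stayed called when the RPE score was added to the fit (log2FC 0.73, FDR 0.0142). No Kv pore, inward rectifier, calcium or sodium channel locus was called higher in that fit, which cannot fully separate the score from age. TWIK-2 is known as a potassium efflux channel of mouse macrophages, and 5 of 6 tested immune cell loci were higher at 18 weeks. Their part in this value was not tested. KCNK3 (TASK-1), an acid-sensitive channel, had medians of 14.4 CPM at 18 weeks and 8.89 CPM at 6 weeks, with 8 old fish above all young fish (log2FC 0.79, SE 0.15, FDR 0.000116).

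KCNK16, known from pancreatic islets in mammals, had few counts, with 1.20, 3.33 and 5.66 CPM in 18-week fish and 0.239, 1.58 and 4.45 CPM in 6-week fish (log2FC 1.0004, SE 0.315, FDR 0.015). The ages overlapped, with 3 old fish above all young fish. The stretch- and lipid-sensitive KCNK10B and KCNK2B were lower, by −0.95 (SE 0.219, FDR 0.00105) and −0.55 (SE 0.177, FDR 0.0163). KCNK1B (TWIK-1) was lower by −0.27 (SE 0.0679, FDR 0.00234), which turned to 0.03 by library size alone.

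**Figure D3:**
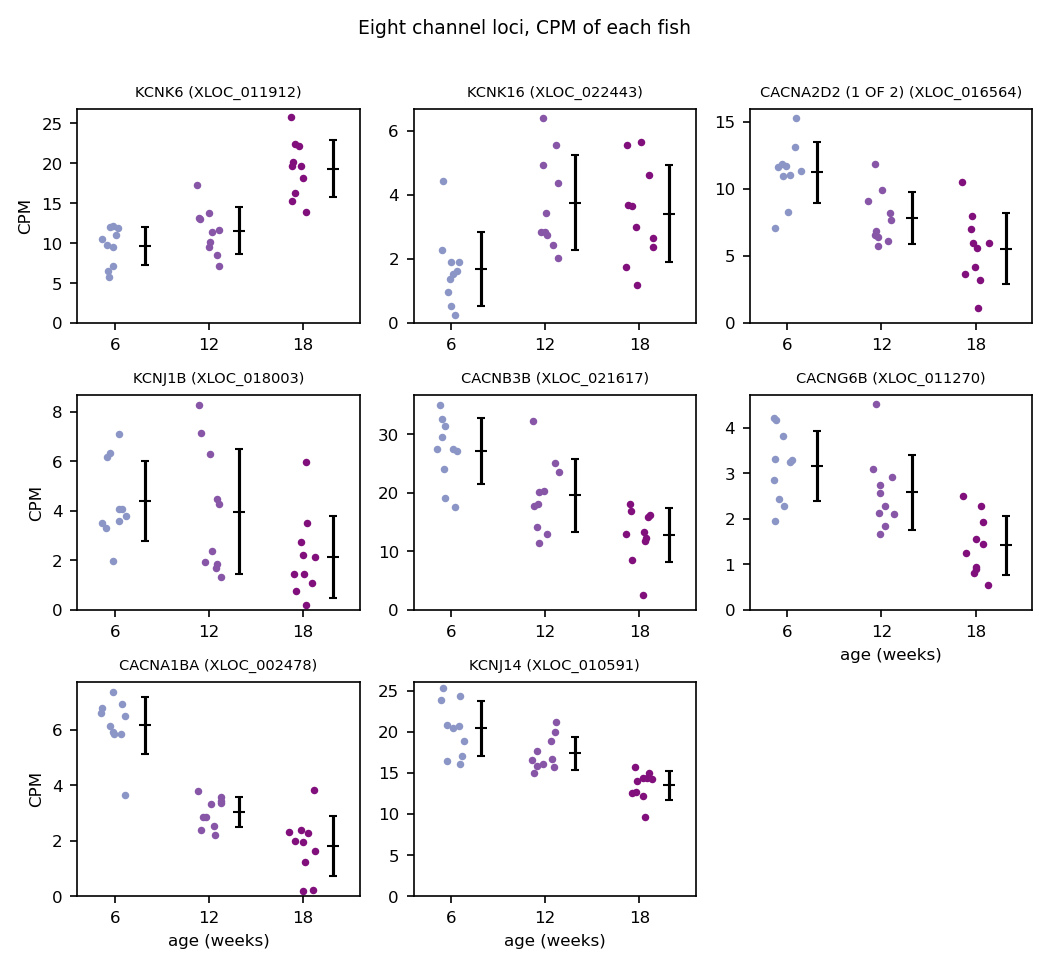
CPM of each fish (points, n = 10 per age) at 6, 12 and 18 weeks for 8 channel loci, the 7 past both thresholds at 18 against 6 weeks and KCNJ14, with mean and SD beside the points. The 18-week fish of KCNK6 lie above all 6-week fish, those of KCNJ14 lie below, and CACNA1BA (XLOC_002478) is lower at both later ages.

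Of 14 tested inward rectifiers, 5 were lower and 1 higher, with a median log2FC of 0.03. Library size alone gave 1 lower and 7 higher, with a median of 0.33. KCNJ14 had 9.62, 14.2 and 15.7 CPM in the lowest, median and highest 18-week fish and 16.1, 20.6 and 25.3 CPM in 6-week fish, without overlap (log2FC −0.60, SE 0.103, FDR 3.27e-05). It lies outside the naming rule and was picked for this after its values were seen. KCNJ2(2OF2), a strong inward rectifier, was lower (−0.43, SE 0.126, FDR 0.00837). KCNJ5 and KCNJ9 (XLOC_015192), subunits of the G protein-gated channels, were lower by −0.62 (SE 0.196, FDR 0.0152) and −0.69 (SE 0.23, FDR 0.0222). KCNJ11L, named after the pore of the ATP-sensitive channel, was higher (0.43, SE 0.137, FDR 0.0154). KCNJ10 (1 OF 2), named after the main inward rectifier of Müller glia, had medians of 8.64 CPM at 18 weeks and 7.11 CPM at 6 weeks (0.30, SE 0.196, FDR 0.253), while 3 of 5 tested Müller marker loci were higher.

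KCNJ1B, of the type known as a kidney channel in mammals, had 0.20, 1.79 and 5.98 CPM in 18-week fish and 1.95, 3.92 and 7.11 CPM in 6-week fish. Its log2FC of −1.05 (SE 0.354, FDR 0.0227) had overlapping ages, with 5 old fish below all young fish. Once the RPE score entered the fit it turned to 0.49 (FDR 0.374), and RPE marker loci were lower at 18 weeks (above). The score did not overlap between these ages, so its part cannot be fully told apart from that of age.

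Among ion-activated channels, KCNMA1(2OF2), a pore of the large-conductance calcium-activated channel, was lower at both later ages. It had 127, 177 and 216 CPM in the lowest, median and highest fish at 6 weeks, 92.8, 134 and 161 CPM at 12 weeks and 93.6, 128 and 152 CPM at 18 weeks. The log2FC was −0.47 at 18 against 6 weeks (SE 0.0957, FDR 0.000318) and −0.37 at 12 against 6 weeks (FDR 0.0296). KCNMA1A (XLOC_007704) had medians of 117 CPM at 18 weeks and 127 CPM at 6 weeks and missed the threshold (−0.20, SE 0.0791, FDR 0.0544). Its RefSeq gene is shared with XLOC_007705, so reads of that gene may be split.

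Voltage-gated sodium channels open at the start of a spike. The deposited name SCN8A(1OF2) is carried by 5 loci, and RefSeq gives 4 of them different symbols. The most counted, XLOC_021035 (*scn8aa*), had medians of 202 CPM at 18 weeks and 216 CPM at 6 weeks (log2FC −0.18, SE 0.0974, FDR 0.176). XLOC_014787 (*scn8ab*) had medians of 22.2 CPM at 18 weeks and 28.8 CPM at 6 weeks and was lower (−0.32, SE 0.106, FDR 0.0213). XLOC_011888 (*scn1lab*) missed the threshold (−0.08, SE 0.105, FDR 0.628). SCN1A, which RefSeq lists as *scn1laa*, had 41.1, 64.2 and 82.2 CPM in the lowest, median and highest 18-week fish and 59.4, 92.6 and 116 CPM in 6-week fish (log2FC −0.47, SE 0.103, FDR 0.000667). Neither lower pore stayed called under library size alone. Of the beta subunits, which adjust gating and bind neighbouring cells, SCN3B was lower (−0.36, SE 0.102, FDR 0.0075). SCN1BB was higher by 0.27 (FDR 0.0483), and 18-week fish 1 had 103 CPM where the next fish had 60.8 CPM. Without that fish the log2FC was 0.14 (FDR 0.172), and the call was lost in 21 of 30 fits that left out a fish.

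**Figure D4:**
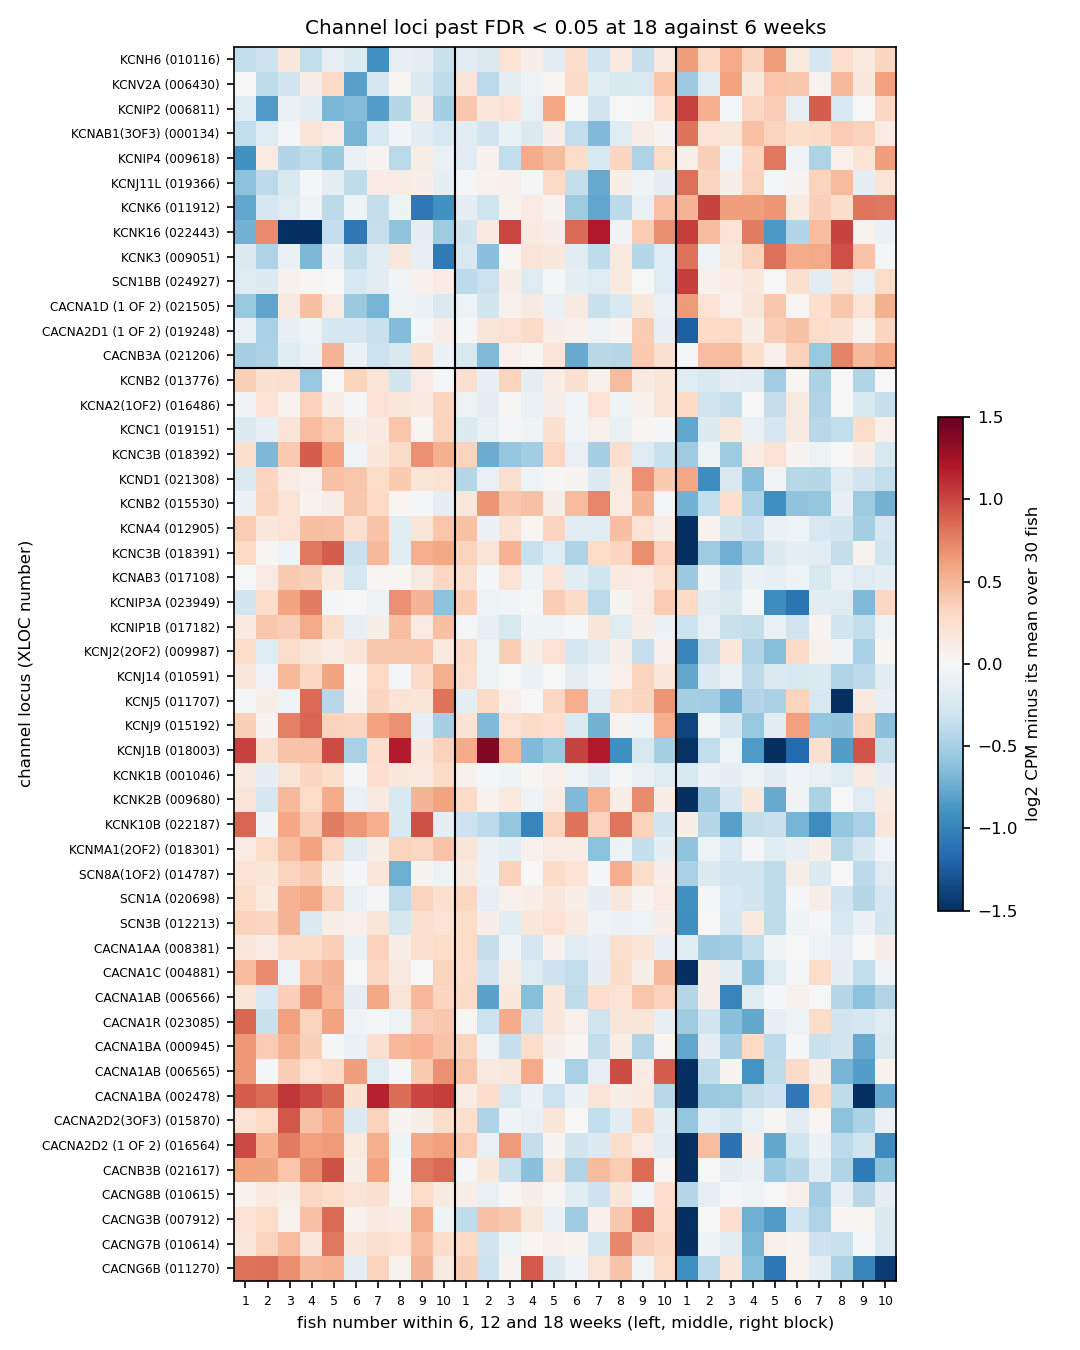
Log2 CPM of each fish minus the mean over all 30 fish (colour, capped at ±1.5) for 50 of the 53 channel loci with an FDR under 0.05 at 18 against 6 weeks. Rows are loci (13 higher above the line, 37 lower below it) and columns are fish by age; rows were chosen by this contrast, so the split between the outer blocks is fixed by the choice, and 18-week fish 1 shows the deepest blue in many rows.

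The 12-week fish lay mostly between. Of the 13 loci higher and 40 lower at 18 against 6 weeks, 9 and 35 had a 12-week mean between the other means, a description over loci chosen by that contrast. Against 6 weeks, 1 channel locus was higher and 4 were lower at 12 weeks (over all loci 1.30% and 0.909%), 1 each with an absolute log2FC of at least 1 (0.336% and 0.165% of all loci), with a median log2FC of −0.09 beside 0.00 over all loci. Library size alone gave 4 higher and 2 lower and turned the channel median to 0.03. Without 18-week fish 1, which is in neither age of this comparison but enters the filter, the scaling and the shared estimate of the spread, 3 were higher and 8 lower, and without 6-week fish 4 only 2 were lower. The higher one was KCNK16 (log2FC 1.13, SE 0.317, FDR 0.0476), with 2.02, 3.15 and 6.39 CPM in 12-week fish. The call was lost in 23 of 30 fits that left out a fish. The lower ones were CACNA1BA (XLOC_002478), KCNMA1(2OF2), KCNIP1B (−0.34, FDR 0.0231) and KCNK9 (XLOC_001540), named for this after its values were seen. KCNK9, an acid-sensitive tandem-pore channel, had medians of 1.55 CPM at 12 weeks and 2.95 CPM at 6 weeks (−0.98, SE 0.266, FDR 0.0377), and 2.32 CPM at 18 weeks. Its RefSeq gene is shared with XLOC_001541, so reads of that gene may be split. This comparison and that of 18 against 6 weeks share the 6-week fish.

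Between 18 and 12 weeks, 8 channel loci were higher and 16 lower at 18 weeks (over all loci 5.19% and 6.93%), none with an absolute log2FC of 1 or more (0.258% and 0.766% of all loci). The channel median was −0.12 and that of all loci 0.01. Library size alone gave 21 higher and 3 lower, and turned the channel median to 0.06. Without 12-week fish 8, 10 were lower, and without 12-week fish 1, 2 or 7, 5 were higher. KCNB2 (XLOC_015530, above), KCNK6 (log2FC 0.74, SE 0.143, FDR 0.000534) and KCNAB1(3OF3) (0.51, SE 0.103, FDR 0.000816) had the smallest FDR. KCNK3 was higher (0.64, SE 0.148, FDR 0.00319). SCN8A(1OF2) at XLOC_014787 (*scn8ab*) had medians of 22.2 CPM at 18 weeks and 29.7 CPM at 12 weeks (−0.42, SE 0.105, FDR 0.00655). KCNA3(2OF2), a Kv1 pore, and KCNJ6, a G protein-gated inward rectifier, were higher here (0.63, FDR 0.01, and 0.45, FDR 0.0162). At 18 against 6 weeks they had log2FC of 0.40 (FDR 0.0602) and 0.30 (FDR 0.0707). Both were picked after their values were seen.

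Partners of these channels, from a list of 41 genes, were found at 76 loci, of which 63 were tested. At 18 against 6 weeks, 18 were lower and 6 higher, which is 28.6% and 9.52%, beside 15.2% and 14.0% over all loci. Their median log2FC was −0.15, beside 0.02 over all loci. Library size alone gave 6 lower and 21 higher, a setting in which 4.56% of all loci were lower and 46.1% higher. Ankyrin-G anchors sodium channels where spikes start, and both of its tested loci were lower. ANK3A had 163 ± 19.0 CPM at 18 weeks and 238 ± 24.7 CPM at 6 weeks (SD, n = 10 each; log2FC −0.55, SE 0.0909, FDR 1.9e-05), and ANK3B at XLOC_018694 had a log2FC of −0.39 (FDR 0.000944). The other locus, ANK3B at XLOC_022108, was not tested, with mean levels of 0.510 CPM at 18 weeks and 0.444 CPM at 6 weeks. The sodium channel-binding FGF13A was lower (−0.38, FDR 0.00359). FGF12B (−0.11, FDR 0.824), FGF14 (−0.41, FDR 0.101) and SPTBN4(3OF3) at XLOC_017613 (−0.20, FDR 0.268) missed the threshold. DPP10(3OF4) at XLOC_001416, a Kv4 partner with few counts, was lower (−1.36, SE 0.319, FDR 0.00134). It had means of 1.19 CPM at 18 weeks and 3.13 CPM at 6 weeks. All other tested DPP6 and DPP10 loci missed the threshold, among them the most counted, DPP10 at XLOC_013703 (−0.07, FDR 0.709). The sodium pump alpha subunit ATP1A1B was lower at XLOC_009521 (−0.49, FDR 0.000105) and XLOC_009522 (−0.84, FDR 4.8e-05).

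Of 10 tested loci of the SLC8 and SLC24 calcium exchangers, 6 were lower and 4 missed the threshold, and the 5 tested loci of the ATP2B calcium pumps missed it too, with log2FC of −0.20 to 0.10. Over all tested loci 15.2% were lower. The counts by family in this paragraph use TMM factors and were not repeated by library size alone. In that setting 6 of all 63 tested partner loci were lower and 21 higher. The lower exchangers included SLC24A2(2OF2), the exchanger known from cones, with 142 ± 35.9 CPM at 18 weeks and 209 ± 53.8 CPM at 6 weeks (SD, n = 10 each; log2FC −0.56, SE 0.145, FDR 0.00336). Calcium channel regulators were split. CABP5B, a calcium-binding protein of bipolar cells, had 58.1 ± 17.5 CPM at 18 weeks and 107 ± 16.1 CPM at 6 weeks (log2FC −0.88, SE 0.133, FDR 5e-06). Its far more abundant paralog CABP5A, with means of 1419 and 1588 CPM at 18 and 6 weeks, missed the threshold (−0.16, FDR 0.11). CABP1A was lower at XLOC_007006 (−0.77, FDR 0.00161) and higher at XLOC_024092 (0.63, FDR 0.0139). CABP4, which tunes the photoreceptor L-type channel, had 63.3 ± 12.4 CPM at 18 weeks and 42.1 ± 7.47 CPM at 6 weeks at XLOC_006488 (0.59, SE 0.117, FDR 0.000226). This locus was higher at 12 weeks already (0.52 against 6 weeks, FDR 0.00802). The other locus, CABP4(1OF2), missed the threshold, with means of 62.2 and 61.9 CPM at 18 and 6 weeks (0.004, SE 0.206, FDR 0.993). Of 6 tested loci of the cyclic nucleotide-gated cation channels of the outer segment, 2 were higher and 1 lower. The rod subunits CNGB1A (0.53, SE 0.0942, FDR 5.1e-05) and CNGA1(2OF2) (0.26, SE 0.0902, FDR 0.0287) were higher, while the rod loci CNGB1(2OF2) (0.13, FDR 0.424) and CNGA1 at XLOC_002682 (0.13, FDR 0.419) missed the threshold. The cone subunit CNGA3B was lower (−0.42, SE 0.14, FDR 0.0212), and the cone subunit CNGB3 missed the threshold (0.11, FDR 0.332). Rod and cone subunits were not tested against each other. TRPM1B, the light-response channel of ON bipolar cells, was lower (−0.75, SE 0.119, FDR 9e-06). CNGA1 is also in the rod list, CNGA3B in the cone list, and TRPM1B, CABP5A and CABP5B in the bipolar list.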

How the data were processed

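Retinal RNA of 30 female killifish was measured, 10 fish each at 6, 12 and 18 weeks of age, and samples were grouped by the ages in the submitters' labels. Per the labels, reads were trimmed with Trim Galore 0.6.7, mapped with STAR 2.7.0 to a custom transcriptome and counted with HTSeq 0.11.2, and the authors deposited raw counts per locus without normalization. Library sizes and tests excluded reads on no feature (18.0% to 27.7% per fish) and ambiguous reads (0.838% to 1.85%). Locus names came from the authors' deposited annotation, made for their single-cell data, whose other columns were not used. RefSeq symbols of assembly NfurGRZ-RIMD1, matched by the annotation's second name for 136 of 208 channel loci, were used for names only, since the counts use another gene set, and no sequence or coordinate was taken from it.

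Loci that passed filterByExpr at its defaults (13975 of 24989, with 99.6% of the counts) received TMM factors and entered 1 edgeR 4.0.16 fit of all 30 fish (glmQLFit, glmQLFTest, R 4.3.3) with a coefficient for each age, and p-values were adjusted by Benjamini-Hochberg over all tested loci. A locus was called at an FDR under 0.05, and past both thresholds also at an absolute log2FC of at least 1. SE was obtained as the absolute log2FC over the root of F. CPM used TMM-scaled library sizes of the tested loci, and log2 CPM a prior count of 2. No 2 samples were identical. Counting error is larger at loci with few counts. In simulated data the fit recovered 45 of 100 changes of log2FC 0.5 and 100 of 100 of 1.5, in either direction, with 8 false calls. A locus that missed the threshold may therefore still differ by such a smaller amount. The changed genes were drawn only from loci above a set mean count, so recovery was not measured for loci with fewer counts. The simulated ages shared their other gene levels, so the simulation says nothing about the scaling.

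The members, the lists of partners and markers and the alternatives were chosen with earlier results of these data known. By rule, the text names loci past both thresholds, up to 3 rising and 3 falling loci with an FDR under 0.05 per class, tested loci of a list of retinal channels, and the 5 with the highest mean CPM. Some loci named by the rule are not reported here, which left 52. The within-fish ratios of paralogs were added after the data were seen. Results were recomputed with RLE factors, upper-quartile factors or library size alone, with DESeq2 1.42.0, without the filter on low counts, with only the 20 fish compared, with an RPE score (mean log2 CPM of tested RPE loci) as a covariate, with fish number as a block, and without each fish in turn. The authors' own comparisons were not used.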

Additional observations from a re-analysis of the deposited data

Results flagged for a closer look

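In 26 of 195 groups of 10 fish, 1 fish lay apart from the others by more than the 95% limit of Dixon's ratio; chance alone flags about 1 in 20 groups. The groups share fish, and 18-week fish 1 was the fish concerned in most of them. That fish was low for CACNB2B (13.58 CPM, next 36.87), CACNA2D4A (0.3772, next 5.633), CACNA2D1 (1 OF 2) (12.83, next 31.65), CACNA1D (1 OF 2) at XLOC_021504 (74.5, next 159.8), CACNG7B (2.452, next 11.71), KCNAB3 (44.89, next 54.48) and SCN8A(1OF2) at XLOC_021035 (98.45, next 169.6). It was high for SCN1BB (103.4 CPM, next 60.79), CACNA1F (94.3, next 63.35) and KCNAB1(3OF3) at XLOC_000134 (59.22, next 45.43). Its summed CPM were low over all channel loci (2466, next 2816), sodium pores (217.7, next 337), alpha2delta (76.01, next 113.5), calcium beta (76.58, next 115.2) and inward rectifiers (108.6, next 137.5), and high over Kv auxiliary subunits (343.5, next 307).

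Other single fish stood apart at 1 or a pair of values. At 12 weeks these were fish 4 for CACNG6B (4.519 CPM) and fish 7 for the sums of inward rectifiers (130.6 CPM) and ion-activated channels (221.6 CPM). At 6 weeks they were fish 5 for CACNG7B (33.38 CPM), fish 6 for CACNA1BA at XLOC_002478 (3.658 CPM) and CACNA1F (28.78 CPM), fish 8 for SCN8A(1OF2) at XLOC_014787 (15.74 CPM) and fish 2 for KCNK16 (4.445 CPM). At 18 weeks, fish 9 was high for KCNK1B (86.99 CPM) and for the sum of tandem-pore channels (143.7 CPM). No cause of these values was tested.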

How the results depend on the processing

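Scaling had the widest effect. With library size alone, 44 channel loci were higher and 11 lower at 18 against 6 weeks, 4 and 1 past both thresholds, partner loci were 21 higher and 6 lower, and the channel median was 0.11; at 12 against 6 weeks 4 were higher and 2 lower, 0 were lower past both thresholds and the median was 0.031; at 18 against 12 weeks 21 were higher and 3 lower, with a median of 0.064. Over all loci, 46.1% were higher and 4.56% lower by library size alone at 18 against 6 weeks. KCNB2 (XLOC_013776) and KCNK1B turned to 0.016 and 0.030. With the RPE score as a covariate, 3 channel and 3 partner loci were higher at 18 against 6 weeks, 2 were lower at 12 against 6 weeks with 0 past both thresholds, 4 were higher at 18 against 12 weeks, and KCNJ1B turned to 0.49. Over all loci, that covariate gave 6.19% higher and 7.74% lower at 18 against 6 weeks. The cause was not tested in either case. Channel loci higher past both thresholds at 18 against 6 weeks numbered 1 under RLE factors, upper-quartile factors, the 20 fish compared, the block and the RPE score. No filter on low counts, which tests more loci, gave 0 higher at 12 against 6 weeks, 0 past both thresholds, and 1 lower past both thresholds at 18 against 12 weeks. At 18 against 6 weeks it gave 13 higher and 39 lower of 202 channel loci (over all loci 8.76% and 9.63%). Past both thresholds, 2 were higher and 7 lower. The fit of the 20 fish compared gave 3 higher at 12 against 6 weeks and 9 lower at 18 against 12 weeks, and DESeq2 2 higher at 12 against 6 weeks. Scaling factors computed without loci that held over 1% of counts, an alternative chosen after seeing the data, gave 13 higher and 40 lower at 18 against 6 weeks.

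The fish numbers did not pair the samples: correlations between same-numbered fish were −0.109 to 0.193, with 2 of 30 over 0.1. With the number as a replicate block, 12 channel loci were higher and 39 lower at 18 against 6 weeks, 1 was higher past both thresholds, and 0 were higher at 12 against 6 weeks, past FDR alone or both thresholds.

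Leaving out each fish in turn gave, at 18 against 6 weeks, 10 to 15 higher and 36 to 43 lower, 0 to 2 and 3 to 6 past both thresholds, 4 to 7 and 16 to 19 partner loci, and a median of −0.22 to −0.16. At 12 against 6 weeks it gave 0 to 3 higher, 2 to 8 lower, 0 to 1 and 0 to 2 past both thresholds, and a median of −0.10 to −0.06. At 18 against 12 weeks it gave 5 to 10 higher, 10 to 19 lower, 0 and 0 to 1 past both thresholds, and a median of −0.14 to −0.06. Over single loci, 2262 such fits kept the side of the threshold, 186 lost the call and 12 gained one. Where a locus was called with or without the fish, 0 changed sign. The sign of loci called in neither fit was not checked. The filter on low counts kept 81 channel loci out of the main fit.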
